A study of Mus musculus with 24 samples.

Results

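The G1 cyclins, their kinases and the inhibitors of those kinases are 10 genes: the D-type cyclins Ccnd1, Ccnd2 and Ccnd3, the E-type cyclins Ccne1 and Ccne2, the kinases Cdk4 and Cdk6, and the inhibitors Cdkn1b, Cdkn2a and Cdkn2b. They were chosen by symbol, and all 10 were found by Ensembl identifier among the 35275 genes listed for cultured cells and the 54532 listed for tumors. All 10 passed the filter on low counts in each comparison. Ccnd2, the cyclin with the widest spread between groups, was 77.5-fold lower in cultured D2.1 cells than in cultured D2A1 cells, and it was also lower in D2.1 tumors of both hosts. Ccne1 was the other gene of the set that was called lower in D2.1 in all 3 comparisons of the lines. In culture its call was narrow (adjusted p = 0.0477 by edgeR), with overlapping groups, and was kept in 1 of 6 fits without 1 culture. The inhibitor Cdkn2b was higher in D2.1 cells and in D2.1 SCID-beige tumors.

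D2.1 and D2A1 are mouse mammary tumor lines of the D2 series, derived from hyperplastic alveolar nodules of female BALB/c mice, and the study used D2.1 as its dormant and D2A1 as its proliferative model. RNA-seq covered 3 cultures of each unmodified line and 18 whole tumors, each from cells implanted into the mammary fat pad (MFP) of female mice of 8 to 12 weeks of age. Of each line, 4 tumors grew in BALB/c (BALB/cAnNTac) hosts, which are immunocompetent, and 5 in SCID-beige hosts, which carry the Prkdc scid and Lyst bg alleles and lack T and B cells and NK cell function. Each line is a single established line, and no group carried a transgene or received a drug. Tumors were snap frozen whole, so their RNA mixes implanted and host cells, and in such bulk samples fewer cells of a type and less RNA per cell cannot be told apart. The labels give no day of collection for a tumor and do not say whether cultures were grown separately, so p-values measure the spread between these libraries, which for cultures may be technical. The paper collected the sequenced tumors at about the same volume and calls those of D2.1 later-stage. Time in the host may thus differ between the lines, and in tumors it cannot be told apart from line. The paper also reports slower growth of D2A1 tumors in BALB/c than in SCID-beige mice. For D2A1 tumors, time may thus also differ between the hosts and cannot be told apart from host.

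D-type cyclins are made in response to growth factors and bind Cdk4 or Cdk6, and the complexes phosphorylate the retinoblastoma protein, which otherwise holds E2F transcription factors inactive. E-type cyclins, themselves E2F targets, then bind Cdk2 and carry the cell into S phase. Cdkn1b encodes p27Kip1, which inhibits cyclin E-Cdk2 complexes and accumulates in resting cells, Cdkn2b encodes p15Ink4b, which blocks Cdk4 and Cdk6, and Cdkn2a encodes both p16Ink4a, a blocker of the same kinases, and p19Arf, which stabilizes p53. In mammary epithelium, cyclin D1 is known for its part in lobular growth during pregnancy and as an oncogene.

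Promoter sequence is shown for 3 genes that stand for the roles in the cycle and that differed between the lines in at least some fits: an E-type cyclin, a kinase and an inhibitor. The stretches are RefSeq sequences on GRCm38.p6, read 5′ to 3′ on the strand of the gene and ending just before its outermost annotated start. Capitals mark E-boxes (CACGTG, the letters bound by Myc and Max) and GC boxes (GGGCGG, bound by Sp1) on either strand.
Ccne1, chr7:38107535-38107740, minus strand: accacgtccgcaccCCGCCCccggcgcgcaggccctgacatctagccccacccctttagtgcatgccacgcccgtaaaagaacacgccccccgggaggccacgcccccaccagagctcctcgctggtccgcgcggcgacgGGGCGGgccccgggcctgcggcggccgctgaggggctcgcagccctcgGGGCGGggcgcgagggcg
Cdk4, chr10:127063285-127063533, plus strand: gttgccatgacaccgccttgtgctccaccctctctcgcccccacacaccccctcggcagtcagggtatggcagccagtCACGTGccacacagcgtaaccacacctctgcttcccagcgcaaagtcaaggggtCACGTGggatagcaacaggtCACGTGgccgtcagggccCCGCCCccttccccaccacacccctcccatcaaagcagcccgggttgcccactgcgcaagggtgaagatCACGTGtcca
Cdkn2b, chr4:89311040-89311282, minus strand: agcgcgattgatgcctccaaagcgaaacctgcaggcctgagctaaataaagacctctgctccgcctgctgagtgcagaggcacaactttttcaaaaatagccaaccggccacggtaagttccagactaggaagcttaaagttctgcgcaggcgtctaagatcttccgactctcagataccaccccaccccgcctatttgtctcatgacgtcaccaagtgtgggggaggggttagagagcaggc
The Cdk4 stretch held 4 E-boxes and 1 GC box, the Ccne1 stretch held 3 GC boxes, and the Cdkn2b stretch held neither motif. The full promoter windows of 300 bases reach past the outermost annotated start. In these, Cdk4 held 4 E-boxes and 3 GC boxes, Ccne1 held 4 GC boxes and Cdkn2b held 1 GC box. Over all 32851 such windows, 7.15% held an E-box and 35.7% a GC box. The letters of E2F sites (TTTCCCGC, TTTCGCGC, TTTGCCGC or TTTGGCGC, either strand) were in 2.26% of all windows and, among the 9 windows of the set, in 1, at the upstream start of Cdkn2a. Windows were listed for 7 of the 10 genes and not for Ccnd1, Ccnd2 and Ccne2.

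Library totals on genes ran from 16837260 to 24818234 counts in cultured cells and from 13566949 to 18355153 in tumors. At these depths 3 counts amounted to 0.121 to 0.178 CPM in cells and 0.163 to 0.221 CPM in tumors (CPM, counts scaled by library size), a limit set by counting error only. T cell markers (Cd3d, Cd3e, Cd3g, Cd4, Cd8a, Cd8b1) summed to 57.7 to 162 CPM in D2.1 BALB/c tumors, 6.74 to 21.6 in D2A1 BALB/c tumors, 5.22 to 13.8 in D2.1 SCID-beige tumors and 0.693 to 2.97 in D2A1 SCID-beige tumors. Some libraries stood apart: D2.1 BALB/c tumor 1 held milk protein transcripts at a summed 343 CPM and muscle transcripts at 329 CPM, and D2.1 BALB/c tumor 4 held skin keratins at 156 CPM. D2.1 SCID-beige tumors 4 and 5 held muscle transcripts at 241 and 188 CPM, against at most 15.7 CPM in the other 3 of the group, and tumor 4 had epithelial markers at 1148 CPM. Without those 2 tumors, a choice made after seeing the data, the same number of the 10 genes, 4, was called between the lines in SCID-beige hosts. In culture, replicate 3 of both lines had the lowest Ccnd1, Ccnd3 and Cdk4 and the highest Cdk6, Cdkn1b and Cdkn2b of its line. The epithelial markers Krt8, Krt18, Cdh1 and Epcam summed to 2340 to 4640 CPM in D2.1 and 130 to 339 CPM in D2A1 cultures. Of these markers, 3 were tested in culture and 3 were called higher in D2.1. The milk protein genes had 0 counts in all cultures. Levels below are CPM scaled by TMM, given for libraries in the order of their replicate numbers, and folds are between the lines or hosts as fitted by edgeR.

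**Figure D1:**
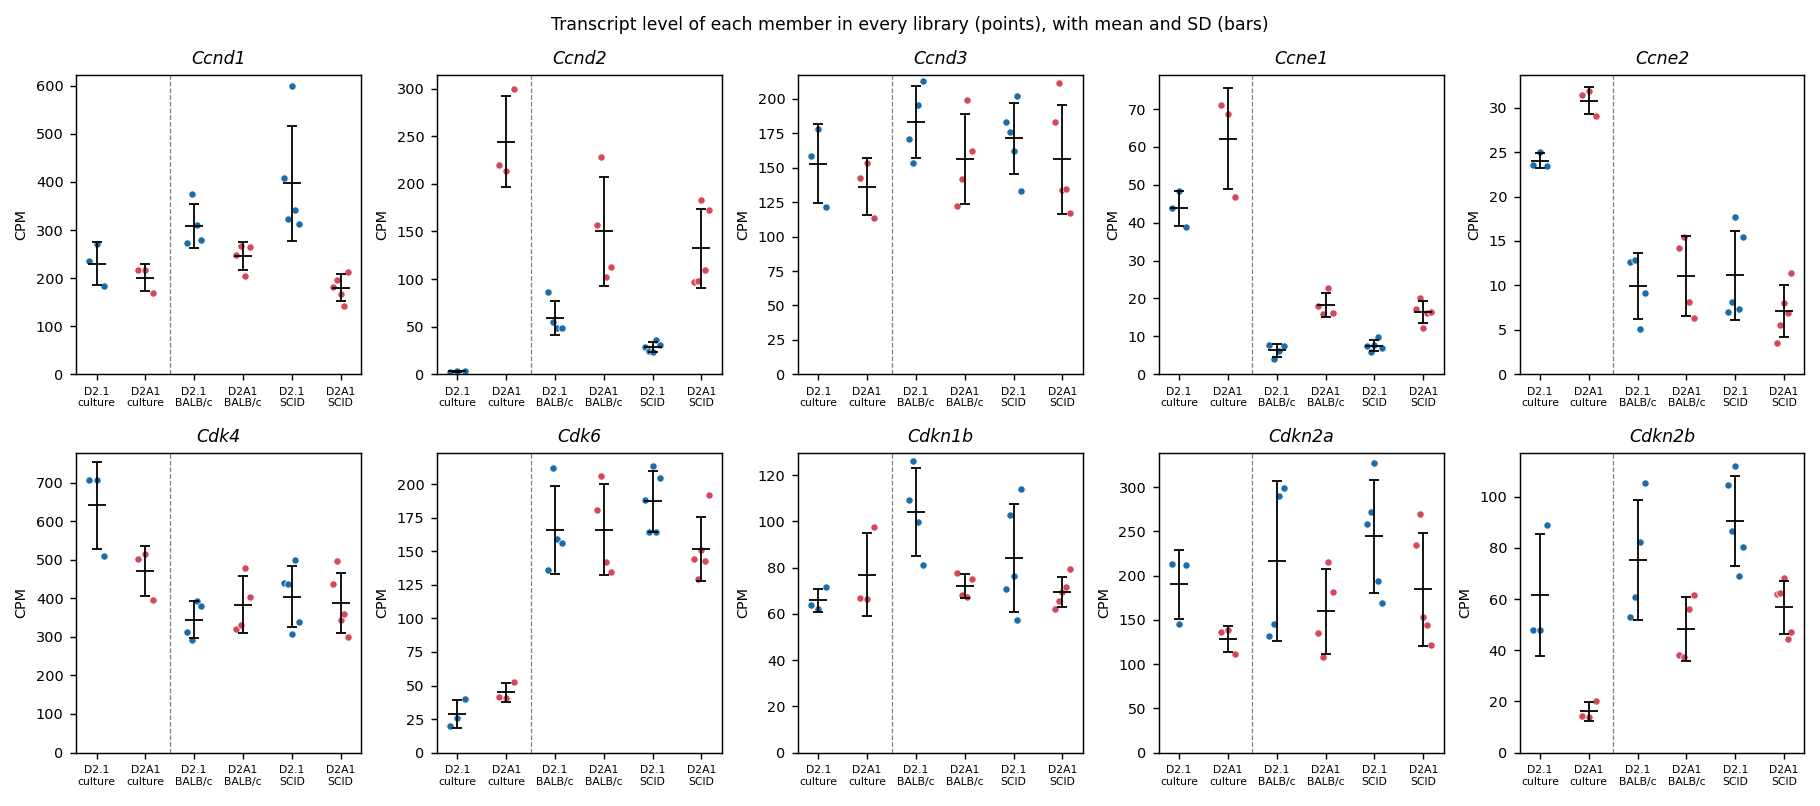
Level of each of the 10 genes in CPM (vertical axis, linear, from 0) in every library of the 6 groups (horizontal axis, SCID standing for SCID-beige), with points for libraries and black bars for mean and SD (n = 3, 4 or 5); the dashed line separates cultured cells from tumors, which stand in separate tables. Ccnd2 was near 0 in D2.1 culture at 2.67 to 3.63 CPM, and Ccne1 was below 10 CPM in all D2.1 tumors and at 12.3 CPM or more in all D2A1 tumors.

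Among the D-type cyclins, Ccnd2 (ENSMUSG00000000184, chr6:127125162-127152193, minus strand, all positions on GRCm38) separated the lines in culture and in both hosts. In cultured cells it stood at 2.67, 3.63 and 3.11 CPM in D2.1 (49 to 82 counts) and at 220, 213.2 and 300.0 CPM in D2A1. The D2.1 libraries were thus far below those of D2A1, although above the level of 3 counts. Of its exon bases, 7.86% overlap antisense genes, which had at most 71 counts in a culture. The log2 fold change was -6.28 (SE 0.21, adjusted p = 4.49e-07 by the quasi-likelihood test of edgeR, after Benjamini and Hochberg). In BALB/c tumors, Ccnd2 stood at 85.9, 54.4, 48.3 and 48.7 CPM in D2.1 and at 157, 229, 102 and 113 CPM in D2A1. The groups did not overlap, and D2.1 tumor 1, the library with milk protein transcripts, was the highest of its group. The log2 fold change there was -1.33 (SE 0.29, adjusted p = 0.0052 by edgeR). In SCID-beige tumors, it stood at 28.1, 24.4, 23.5, 35.7 and 30.5 CPM in D2.1 and at 97.0, 98.4, 183, 110 and 173 CPM in D2A1. Again no D2.1 tumor reached the lowest D2A1 tumor, and Ccnd2 was 4.62-fold lower in D2.1 (log2 fold change -2.21, SE 0.22, adjusted p = 5.3e-06 by edgeR). These calls held under every alternative run, 13 in culture, 16 in BALB/c and 18 in SCID-beige tumors.

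Cultured D2.1 cells had at most 3.63 CPM of Ccnd2, whereas tumors of the same line had 23.5 to 85.9 CPM, values that stand side by side because cell and tumor tables were made with different gene models. Ccnd2 is also expressed by cells other than tumor cells, and the endothelial markers (Pecam1, Cdh5, Kdr, Emcn) moved with it between the groups. They summed to 72.5 to 120 CPM in D2.1 BALB/c tumors against 191 to 254 in D2A1 BALB/c tumors, and to 49.9 to 83.5 CPM against 171 to 249 in SCID-beige tumors, with 3 and 4 of the 4 markers lower in D2.1. In cultured cells they summed to at most 0.761 CPM, and there the difference in Ccnd2 was the largest of the 3. Fibroblast markers (Pdgfra, Dpt, Pi16, Dcn) moved the other way, with 4 of 4 called higher for D2.1 in BALB/c and 3 of 4 in SCID-beige tumors. They summed to 56.8 to 75.8 CPM in D2.1 culture and 4.78 to 10.8 CPM in D2A1 culture, so the sum was not 0 without host cells. Of the 4 markers, 1 passed the filter in culture, and Dcn and Dpt had 0 counts in every D2A1 culture. The part of host cells in the Ccnd2 levels of tumors was not tested.

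**Figure D2:**
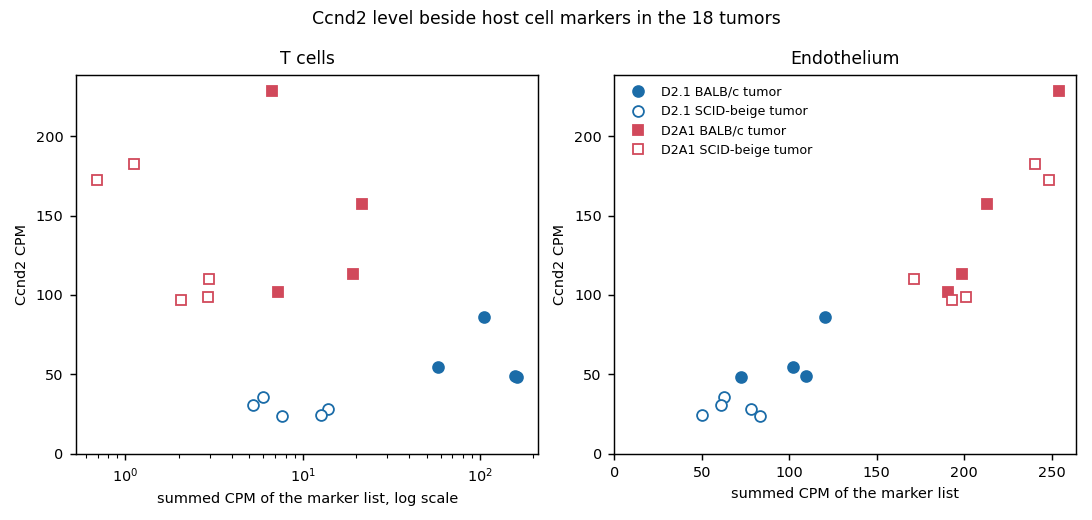
Ccnd2 level in CPM (vertical axis, from 0) against the summed CPM of T cell (log axis) and endothelial markers (linear axis) in each of the 18 tumors, with circles for D2.1, squares for D2A1, filled symbols for BALB/c and open ones for SCID-beige. All D2A1 tumors lie at 97.0 CPM of Ccnd2 or more and at 171 CPM of endothelial markers or more, and all D2.1 tumors lie below both.

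Ccnd1 (ENSMUSG00000070348, chr7:144929931-144939925, minus strand), a cyclin gene often amplified in breast cancer, was higher in D2.1 than in D2A1 SCID-beige tumors. There it stood at 408, 324, 601, 341 and 312 CPM in D2.1 and at 182, 197, 166, 142 and 213.6 CPM in D2A1. The groups did not overlap, and D2.1 tumor 3 was the highest of all tumors. The log2 fold change was 1.14 (SE 0.20, adjusted p = 0.00059 by edgeR), and it remained called without any single tumor (0.94 to 1.22). In BALB/c tumors, the levels were 274, 374, 310 and 279 CPM in D2.1 and 249, 266, 205 and 264 CPM in D2A1. All 4 D2.1 tumors were again above all 4 D2A1 tumors, but by less, and the log2 fold change of 0.34 (95% interval 0.00 to 0.67) did not pass (adjusted p = 0.11 by edgeR). In culture, D2.1 at 236, 271 and 183 CPM overlapped with D2A1 at 216.97, 217.2 and 168 CPM, and the log2 fold change was 0.20 (95% interval -0.20 to 0.59). Of the exon bases of Ccnd1, 23.4% overlap the gene annotated as LTO1 on the opposite strand, which had at most 483 counts in a tumor, and whether counting used the strand is not given in the sources used here.

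Ccnd3 (ENSMUSG00000034165, chr17:47505051-47599691, plus strand), a D-type cyclin needed by developing lymphoid cells, overlapped between the lines in culture and in both hosts. Its level ranged from 113 to 178 CPM in cultured cells and from 117 to 212.8 CPM in tumors. The 95% intervals of the log2 fold change were -0.23 to 0.56 in culture, -0.15 to 0.63 in BALB/c and -0.26 to 0.52 in SCID-beige tumors, and none of the 3 differences passed. A processed pseudogene, Ccnd3-ps, is 96.3% identical to Ccnd3 over 881 bases and had at most 4 counts. Of the exon bases of Ccnd3, 4.11% overlap Bysl on the opposite strand, which had up to 2820 counts in a culture and 1088 in a tumor.

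Levels of different genes were compared per length, in the deposited FPKM. Ccnd2 made up 0.446% to 0.672% of the summed D-type cyclin FPKM in D2.1 culture and 27.7% to 41.4% in D2A1 culture. In tumors it made up 8.41% to 15.7% in D2.1 BALB/c, 3.17% to 6.46% in D2.1 SCID-beige, 18.6% to 35.5% in D2A1 BALB/c and 17.8% to 36.2% in D2A1 SCID-beige. The share of Ccnd2 in D2A1 libraries was thus above that in D2.1 libraries of the same kind without overlap. Ccnd1 made up 60.2% to 60.8% in D2.1 culture and 35.5% to 43.4% in D2A1 culture, and 47.0% to 66.5% in D2.1 against 27.1% to 34.3% in D2A1 SCID-beige tumors. Whether Ccnd1 or Ccnd3 was the more abundant in tumors turned on the lengths used. The gene lengths that the FPKM imply were 1994 bases for Ccnd1 and 1180 for Ccnd3 in the tumor table, against 3740 and 3858 in the cell table and 4709 and 8775 bases of all GENCODE M21 exons. With the last of these, Ccnd1 made up 50.5% to 85.9% of the D-type cyclins of every tumor, and the Ccnd2 shares of the lines still did not overlap.

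**Figure D3:**
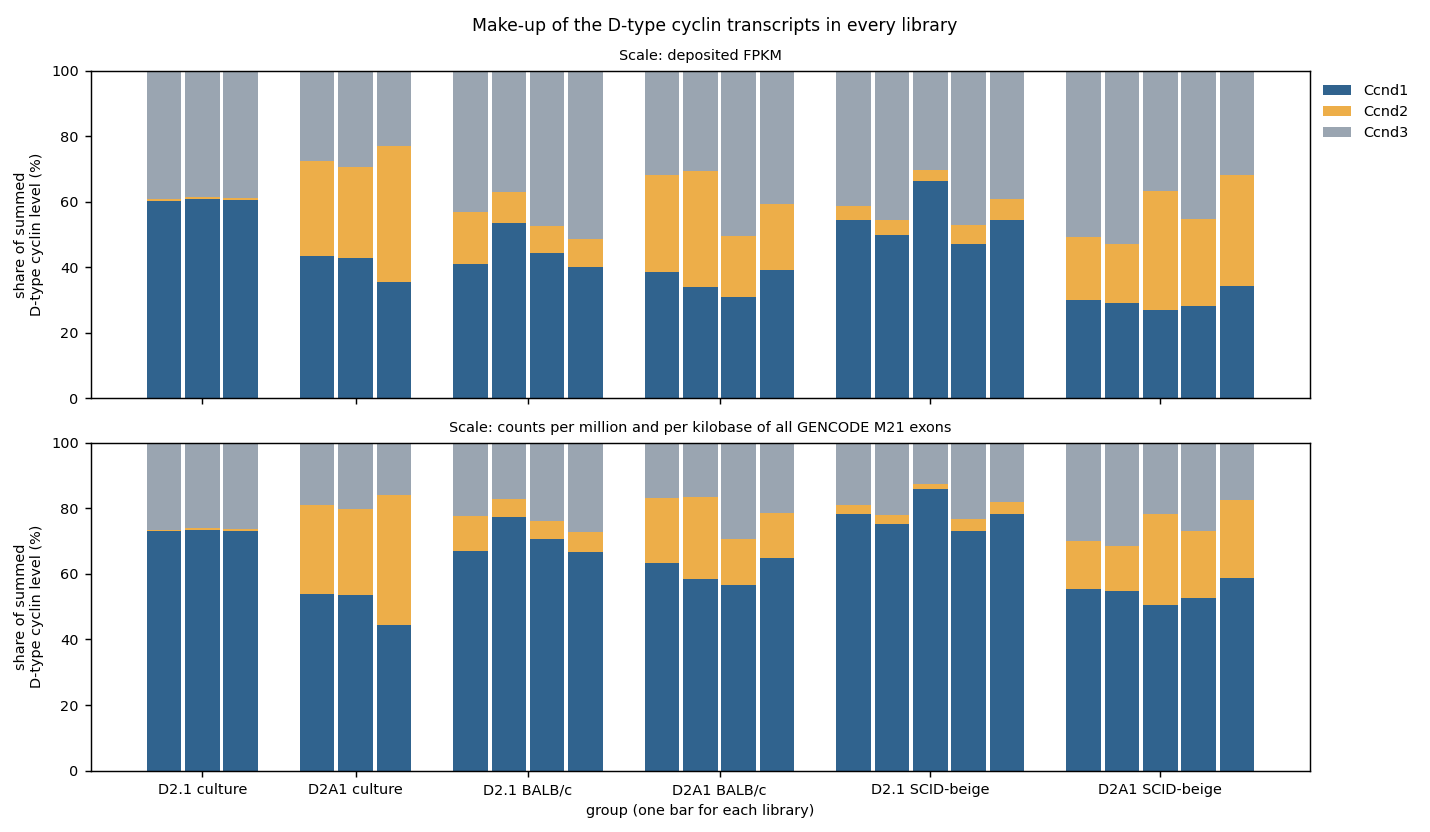
Share in percent (vertical axis) of Ccnd1, Ccnd2 and Ccnd3 in their summed level, one stacked bar per library grouped by the 6 groups, on the scale of deposited FPKM (top) and of CPM per kilobase of all annotated exons (bottom). The Ccnd2 segment is under 1% in D2.1 culture and at least 27.7% of the FPKM in D2A1 culture, and it is smaller in D2.1 than in D2A1 tumors of the same host on both scales.

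Of the E-type cyclins, Ccne1 (ENSMUSG00000002068, chr7:38097984-38107534, minus strand) was lower in D2.1 tumors of both hosts. In BALB/c tumors it stood at 7.65, 4.10, 6.03 and 7.44 CPM in D2.1 and at 18.02, 16.0, 22.7 and 16.2 CPM in D2A1. In SCID-beige tumors it stood at 7.43, 5.75, 7.65, 9.90 and 6.92 CPM in D2.1 and at 17.3, 20.1, 12.3, 16.1 and 16.3 CPM in D2A1. No D2.1 tumor of either host reached the lowest D2A1 tumor. The log2 fold change was -1.52 (SE 0.25, adjusted p = 0.0012 by edgeR) in BALB/c and -1.12 (SE 0.22, adjusted p = 0.0013) in SCID-beige tumors, and each was called in every alternative. In culture, Ccne1 was at 44.0, 48.4 and 39.0 CPM in D2.1 and at 71.1, 68.6 and 46.8 CPM in D2A1. The lowest D2A1 culture, replicate 3, lay within the range of D2.1, and the log2 fold change of -0.51 (SE 0.18) passed narrowly (adjusted p = 0.0477 by edgeR). With the replicate number as a block it was -0.49 (adjusted p = 0.0015), and of the 6 fits without 1 culture (-0.68 to -0.40) only that without D2A1 replicate 3 kept the call.

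Ccne2 (ENSMUSG00000028212, chr4:11191351-11204779, plus strand) stood at 23.6, 24.99 and 23.5 CPM in D2.1 culture and at 31.5, 31.9 and 29.1 CPM in D2A1 culture. The groups did not overlap, with a log2 fold change of -0.36 (SE 0.12, adjusted p = 0.0429 by edgeR). That call, too, was kept only without D2A1 replicate 3 among the 6 omissions. In tumors Ccne2 ranged from 3.51 to 17.7 CPM, the lines overlapped in both hosts, and the log2 fold changes were -0.15 (95% interval -0.97 to 0.68) in BALB/c and 0.67 (-0.10 to 1.44) in SCID-beige tumors. Of the summed E-type cyclin FPKM, Ccne1 made up 36.0% to 67.9% in D2.1 and 64.6% to 83.1% in D2A1 BALB/c tumors, ranges that overlap, and 43.3% to 70.3% against 71.8% to 89.7% in SCID-beige tumors. Of the exon bases of Ccne2, 17.4% overlap Ints8 on the opposite strand, which had up to 1258 counts in a culture and 876 in a tumor, so part of the Ccne2 level is uncertain.

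Cdk4 (ENSMUSG00000006728, chr10:127063534-127067920, plus strand) was the more abundant of the 2 kinase transcripts per length, at 93.2% to 98.5% of the summed Cdk4 and Cdk6 FPKM in cultures and 79.2% to 91.4% in tumors. In culture Cdk4 stood at 706, 707 and 510 CPM in D2.1 and at 501, 515 and 396 CPM in D2A1. D2.1 replicate 3 fell among the D2A1 libraries, and the log2 fold change of 0.45 (SE 0.18) did not pass (adjusted p = 0.074 by edgeR). Cdk6 (ENSMUSG00000040274, chr5:3341485-3531008, plus strand) was at 20.02, 25.7 and 40.2 CPM in D2.1 and at 41.1, 40.8 and 52.8 CPM in D2A1, a log2 fold change of -0.65 (SE 0.25, adjusted p = 0.062). The libraries of replicate 3 moved together in both lines, and with the replicate number as a block both differences passed, at 0.44 for Cdk4 (adjusted p = 0.00085 by edgeR) and -0.69 for Cdk6 (adjusted p = 0.00032). Without replicate 3 of both lines, a choice made after seeing the data, the log2 fold changes were 0.47 (adjusted p = 0.00035) and -0.84 (adjusted p = 6.46e-05).

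In tumors no difference in a kinase between the lines passed the test. Cdk4 ranged from 293 to 499 CPM in D2.1 and from 300.0 to 497 CPM in D2A1 tumors, with 95% intervals of the log2 fold change of -0.52 to 0.23 in BALB/c and -0.32 to 0.44 in SCID-beige tumors. Cdk6 ranged from 136 to 213.8 CPM in D2.1 and from 129 to 207 CPM in D2A1 tumors, with intervals of -0.41 to 0.42 and -0.01 to 0.62. Of the exon bases of Cdk4, 19.7% overlap Tspan31 on the opposite strand, which had up to 2008 counts in a culture.

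Of the inhibitors, Cdkn2b (ENSMUSG00000073802, chr4:89306299-89311039, minus strand) was higher in D2.1 cells and in D2.1 SCID-beige tumors. It stood at 47.9, 48.0 and 89.1 CPM in D2.1 culture and at 14.2, 13.7 and 20.3 CPM in D2A1 culture. All D2.1 cultures were above all D2A1 cultures, and replicate 3 was the highest in both lines. Cdkn2b was 3.83-fold higher in D2.1 (log2 fold change 1.94, SE 0.28, adjusted p = 0.00064 by edgeR), and without any single culture the log2 fold change was 1.58 to 2.14. In SCID-beige tumors it stood at 105, 86.7, 112, 69.1 and 80.4 CPM in D2.1 and at 61.9, 62.3, 68.3, 44.5 and 47.0 CPM in D2A1. The groups touched without overlapping, and the log2 fold change was 0.68 (SE 0.18, adjusted p = 0.010 by edgeR). In BALB/c tumors, at 53.1, 60.7, 82.1 and 105 CPM in D2.1 and 38.3, 37.2, 56.3 and 61.7 CPM in D2A1, the groups overlapped and the log2 fold change of 0.64 (95% interval 0.08 to 1.21) did not pass (adjusted p = 0.077 by edgeR).

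Cdkn1b (ENSMUSG00000003031, chr6:134920401-134925513, plus strand) was one of the genes that the study singled out in these tumors, so its direction here is not independent evidence. It stood at 109, 126, 99.7 and 80.9 CPM in D2.1 BALB/c tumors and at 77.7, 68.1, 67.0 and 75.2 CPM in D2A1 BALB/c tumors. All D2.1 tumors were above all D2A1 tumors, the nearest by a small margin, with a log2 fold change of 0.54 (SE 0.16, adjusted p = 0.0277 by edgeR). That call was kept without D2.1 tumor 4 or D2A1 tumor 1 and lost without any of the other 6 tumors, with log2 fold changes of 0.43 to 0.65 and adjusted p of 0.0128 to 0.0791 over the 8 omissions. In SCID-beige tumors, at 70.8, 103, 76.2, 57.4 and 114 CPM in D2.1 and 61.95, 65.3, 69.5, 71.5 and 79.2 CPM in D2A1, the groups overlapped. The log2 fold change there was 0.28 (95% interval -0.12 to 0.68, adjusted p = 0.27 by edgeR). In culture Cdkn1b ranged from 62.1 to 71.6 CPM in D2.1 and from 66.5 to 97.6 CPM in D2A1, with an interval of -0.61 to 0.16.

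Cdkn2a (ENSMUSG00000044303, chr4:89274471-89294653, minus strand) was expressed in every library, at 112 to 213.1 CPM in cultured cells and 107 to 328 CPM in tumors. Its counts pool the transcripts of p16Ink4a and p19Arf, which start at different first exons and which gene counts cannot tell apart. In culture it stood at 213.1, 145 and 212.2 CPM in D2.1 and at 136, 138 and 112 CPM in D2A1. The groups did not overlap, D2.1 replicate 2 being close to D2A1, and the log2 fold change was 0.56 (SE 0.17, adjusted p = 0.0278 by edgeR). It was called without D2.1 replicate 2, and was no longer called without any of the other 5 cultures, with library totals in place of TMM (0.45, adjusted p = 0.082) and without replicate 3 of both lines (0.38, adjusted p = 0.13). In tumors the lines overlapped, with intervals of -0.24 to 1.13 in BALB/c and -0.12 to 0.92 in SCID-beige tumors.

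Counted over the set, 5 of the 10 genes passed between the cultured lines by edgeR, 2 higher and 3 lower in D2.1, where 44.9% of the 12489 genes tested passed (24.2% higher and 20.7% lower). Without any single culture 2 to 4 passed, with 2 left without D2A1 culture 1, D2A1 culture 2 or D2.1 culture 1 and 3 without D2.1 culture 2. With the replicate number as a block 7 passed, where 60.4% of the same genes did. Between the lines in BALB/c tumors 3 passed, 1 higher and 2 lower, where 32.6% of 14953 genes did (16.8% higher and 15.8% lower), and in SCID-beige tumors 4 passed, 2 higher and 2 lower, where 32.1% of 14355 genes did (17.2% higher and 14.8% lower). The shares of the set are near those of all genes, so the number of calls does not set these genes apart. The median log2 fold change over the 10 genes was -0.03 in culture, 0.12 in BALB/c and 0.29 in SCID-beige tumors, beside -0.02, -0.02 and 0.02 over all genes tested. The calls among the E-type cyclins were all lower in D2.1, those among the inhibitors all higher, and those among the D-type cyclins were lower for Ccnd2 and higher for Ccnd1.

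**Figure D4:**
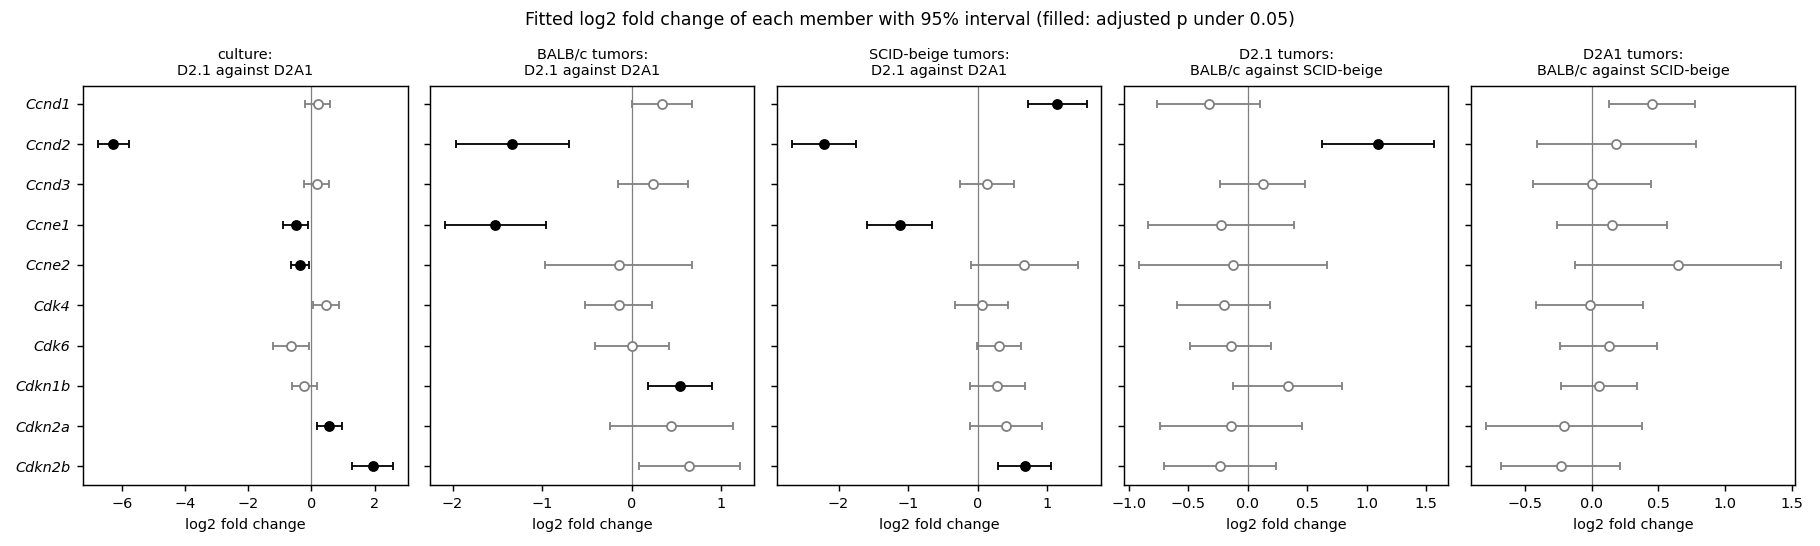
Fitted log2 fold change of each of the 10 genes (horizontal axis, with its own range in each panel) with its 95% interval in 3 comparisons of D2.1 over D2A1 and 2 of BALB/c over SCID-beige, with filled points for an adjusted p under 0.05 by edgeR. Ccnd2 and Ccne1 are filled on the negative side in all 3 line comparisons, and in the host comparisons 1 point, Ccnd2 in D2.1 tumors, is filled.

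The host comparison asked how the immune system of BALB/c mice bears on the tumors, although time in the host may differ with it for D2A1. Of the 10 genes, 1 passed in D2.1 tumors (0.891% of 14929 genes tested, 0.871% higher and 0.0201% lower in BALB/c) and 0 in D2A1 tumors (1.17% of 14572 genes, 0.906% higher and 0.261% lower, edgeR), where 1 had an unadjusted p under 0.05 and DESeq2 also called 0. In D2.1 tumors Ccnd2 was higher in BALB/c hosts, with every BALB/c tumor (48.3 to 85.9 CPM) above every SCID-beige tumor (23.5 to 35.7 CPM). The log2 fold change was 1.09 (SE 0.22, adjusted p = 0.0386 by edgeR). It rested on few libraries: without BALB/c tumor 1 it was 0.84 (adjusted p = 0.13), and the call was lost in 7 of the 9 fits without 1 tumor (adjusted p of 0.0304 to 0.125), also without BALB/c tumors 3 or 4 and SCID-beige tumors 1, 2, 3 or 5. Without BALB/c tumors 1 and 4, a choice made after seeing the data, it was 0.88 (adjusted p = 0.46), and without SCID-beige tumors 4 and 5 it was 1.27 (adjusted p = 0.095). In the same comparison 5 of 6 T cell markers were also higher. Their sums were 57.7 to 162 CPM in BALB/c and 5.22 to 13.8 CPM in SCID-beige tumors. Jchain, the joining chain of antibodies made by plasma cells, was higher in BALB/c too, a gene named after its values were seen. Its log2 fold change was 6.96 (95% interval 5.50 to 8.42, adjusted p = 0.00066 by edgeR). Of its list of 4 B and plasma cell markers, 2 were tested here and 1 passed. The endothelial markers, at 72.5 to 120 against 49.9 to 83.5 CPM, overlapped and none passed. Between the lines in BALB/c hosts, 6 of 6 T cell markers were higher in D2.1, where Ccnd2 was lower. Cultured D2A1 cells had 213.2 to 300.0 CPM of Ccnd2 and cultured D2.1 cells 2.67 to 3.63 CPM. The part of host cells in the change of Ccnd2 was not tested. Among D2A1 tumors, Ccnd2 overlapped between the hosts, with a log2 fold change of 0.19 (95% interval -0.41 to 0.78). There 4 of the 5 T cell markers tested were higher in BALB/c.

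Ccnd1 had the smallest unadjusted p among D2A1 tumors, with a log2 fold change of 0.45 for BALB/c over SCID-beige (95% interval 0.13 to 0.77, adjusted p = 0.22 by edgeR). Its order over tumors was D2A1 SCID-beige (mean 180 CPM), D2A1 BALB/c (246), D2.1 BALB/c (309) and D2.1 SCID-beige (397), in which only the middle neighbors did not overlap. For Ccnd2 the order was D2.1 SCID-beige (28.4 CPM), D2.1 BALB/c (59.3), D2A1 SCID-beige (132) and D2A1 BALB/c (150), in which the last neighbors overlapped. Whether the difference between the lines depended on the host was tested as an interaction over all 18 tumors. By edgeR it passed for 0 of the 10 genes (0.0187% of 16036 genes tested) and DESeq2 also called 0. It had an unadjusted p under 0.05 for 2: Ccnd1 at -0.81 on the log2 scale (SE 0.26, adjusted p = 0.35) and Ccnd2 at 0.88 (SE 0.36, adjusted p = 0.52).

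The other genes of the pathway were followed in a list of 34 genes that act between the cyclin-dependent kinases, the retinoblastoma family and E2F. In culture 11 of the 33 tested passed by edgeR, 1 higher and 10 lower in D2.1, against 44.9% of all genes. Mybl2, a partner of the MuvB complex that drives mitotic genes, was at 78.0 ± 24.2 CPM in D2.1 and 215.4 ± 57.8 in D2A1 (SD, n = 3; log2 fold change -1.46, adjusted p = 0.0026 by edgeR). E2f6, a repressor, fell by 1.67 on the log2 scale and E2f1, an activator, by 0.73, whereas Lin37, a subunit of MuvB, rose by 0.96. With the replicate number as a block 17 passed, 3 higher and 14 lower, where 60.4% of all genes did (30.7% higher and 29.7% lower).

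In BALB/c tumors 15 of 34 passed, 2 higher and 13 lower, against 32.6% of all genes. Among called genes whose groups did not overlap, 3 fell by the most on the log2 scale. They were Mybl2 (-1.14), E2f8 (-1.09), a repressor of the late cycle, and Ccnh (-1.09), the cyclin of the kinase that activates the others. Rbl2, which encodes the retinoblastoma relative p130 of resting cells, rose from 24.4 ± 7.56 CPM in D2A1 to 65.3 ± 20.9 in D2.1 (SD, n = 4; log2 fold change 1.43, adjusted p = 0.0038 by edgeR), and E2f2 by 0.63. In SCID-beige tumors 11 of 33 passed, 5 higher and 6 lower, against 32.1%. Among called genes whose groups did not overlap, E2f2 (1.05), E2f7 (0.93) and Cdk2 (0.62), the partner of the E-type cyclins, rose the most. Fbxw7 (-0.82), which marks cyclin E protein for destruction, E2f6 (-0.77) and Cdk7 (-0.56) fell the most among them. Rbl2 was not among these genes.

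E2f6 and Mybl2 were called lower in D2.1 in all 3 line comparisons, and none of the 34 was called higher in all 3. The median log2 fold change of the list was -0.19 in culture, -0.29 in BALB/c and -0.06 in SCID-beige tumors. Rb1 itself, the retinoblastoma gene, was not called in any of the 3, with 95% intervals of -0.46 to 0.84, -0.87 to 0.92 and -0.40 to 1.11. Cdkn1a (p21Cip1) was lower in D2.1 tumors of both hosts, by 1.06 and 0.79 on the log2 scale (adjusted p = 0.00064 and 0.021 by edgeR), and its log2 fold change in culture was 0.01. Between hosts, edgeR called 0 of the list in either line (5 and 4 with an unadjusted p under 0.05), and DESeq2 called 0 in D2.1 and 1 in D2A1 tumors. The interaction called 0, with 5 of unadjusted p under 0.05.

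**Figure D5:**
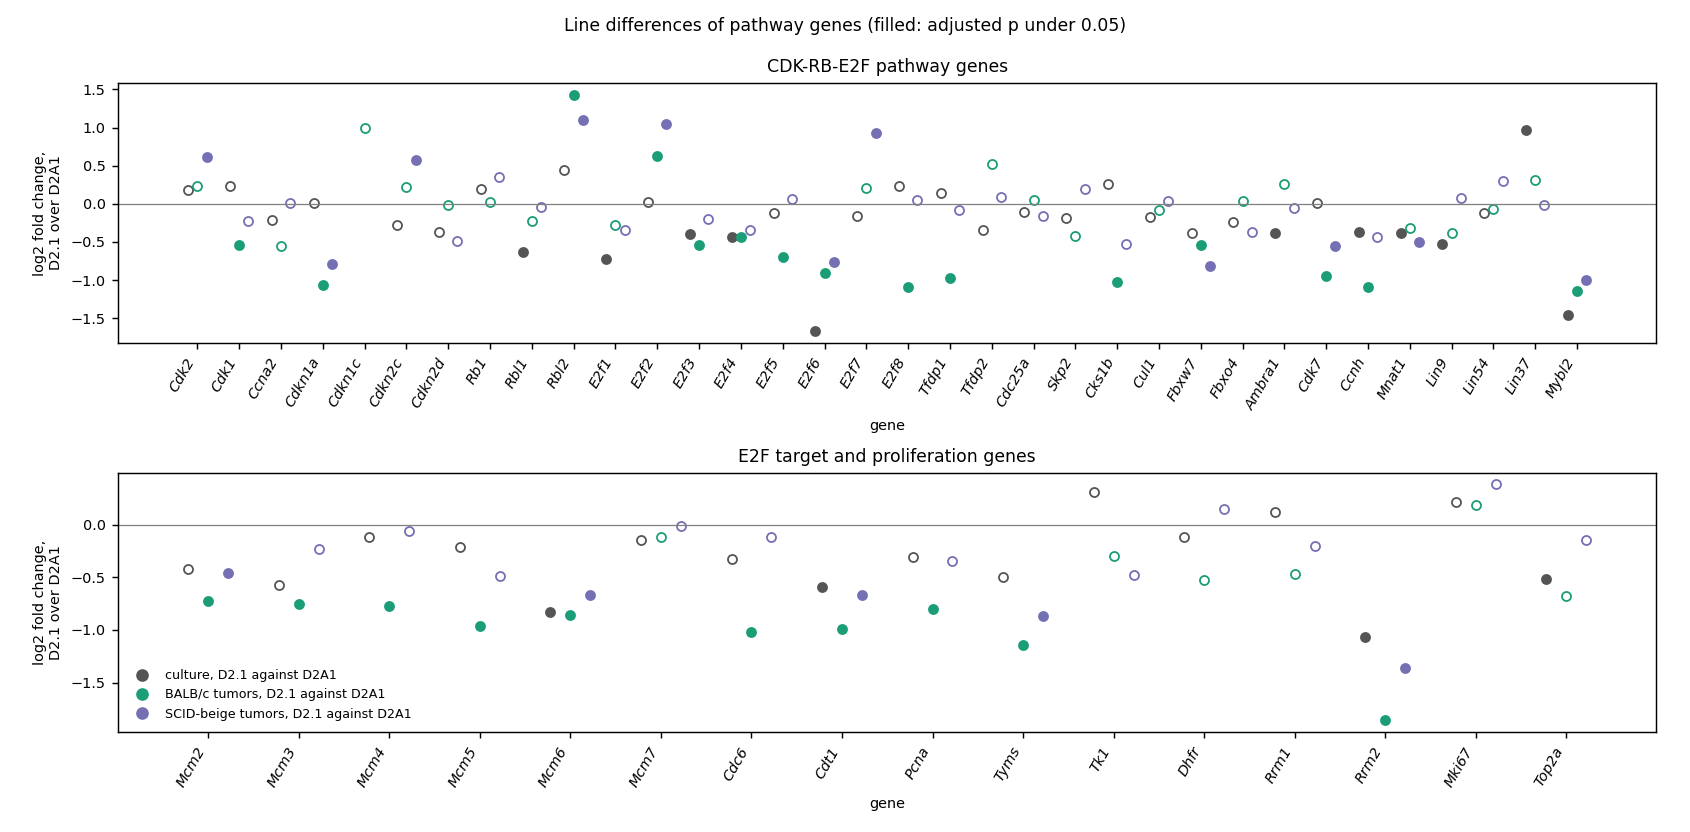
Log2 fold change of D2.1 over D2A1 (vertical axis) for each of the 34 pathway genes (top) and 16 E2F target and proliferation genes (bottom) in culture (grey), BALB/c tumors (green) and SCID-beige tumors (purple), with filled points for an adjusted p under 0.05 by edgeR. All filled points of the lower panel lie below 0, and Rbl2 at 1.43 and 1.10 gives the highest points of the upper panel.

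Genes that E2F activates at the start of S phase, with the proliferation markers Mki67 and Top2a, formed a second list of 16. Of these, 4 passed in culture, 10 in BALB/c tumors and 5 in SCID-beige tumors, all lower in D2.1 (edgeR, against 20.7%, 15.8% and 14.8% of all genes called lower). Their median log2 fold changes were -0.31, -0.76 and -0.29. Rrm2, a subunit of ribonucleotide reductase, was at 268 ± 60.6 against 563 ± 51.8 CPM in culture, 34.6 ± 3.39 against 126 ± 18.1 in BALB/c tumors and 40.6 ± 10.4 against 105 ± 8.47 in SCID-beige tumors (SD, n = 3, 4 and 5). Its log2 fold changes were -1.07, -1.86 and -1.37. Mcm6, a subunit of the replicative helicase, and Cdt1, which loads it, were also lower in all 3. Mki67, which is transcribed in cycling cells, was not called in any of the 3, with log2 fold changes of 0.22, 0.19 and 0.38 and 95% intervals of -0.25 to 0.68, -0.45 to 0.82 and -0.02 to 0.78. Between hosts 0 of the 16 passed by edgeR in either line, with 0 and 4 of unadjusted p under 0.05.

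Over the 18 tumors, genes with levels most like a member were ranked among 13770 protein-coding genes by Pearson's r of log2 CPM, a description in which the points share line, host and library. For Ccnd2 they were Pecam1 (0.96), the endothelial adhesion molecule, Adam12 (0.96) and Flt4 (0.955), a receptor of lymphatic endothelium. After the mean of each group was subtracted they were Zfp280b (0.915), Cdc42se2 (0.88) and F2r (0.87), none of which was in the first 3. For Ccne1 they were Nectin2 (0.97), Bag2 (0.97) and Slc1a5 (0.96), and for Ccnd1 Dagla (0.92), Sipa1l2 (0.92) and Dhcr7 (0.90). Sipa1l2 was also first for Ccnd1 after group means were subtracted (0.86), ahead of Pdp2 (0.82) and Spry4 (0.79). For Cdk4, Wdr18 and Cisd1 were among the first 3 both before (0.96 and 0.95) and after (0.98 and 0.97) the subtraction. For the remaining 6 genes the highest r ranged from 0.91 to 0.95 before the subtraction.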

How the data were processed

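RNA-seq was analysed from 6 cultures and 18 tumors in 6 groups, assigned by the sample labels. The authors deposited counts, which are unnormalized reads per gene, and FPKM, in which each count is scaled to the length of its gene and the size of its library. On 100% of the genes with at least 10 counts in at least 2 libraries, the deposited FPKM implied a single length within 1%. The submitters' processing notes name STAR and mm10. Versions, counting program, annotation and strand setting are not given in the sources used here. Identifiers were matched to GENCODE M21 (GRCm38), and those without a symbol held 0.0969% of counts in cells and 0.0446% in tumors.

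The call of a change came from edgeR 4.0.16, run under R 4.3.3 (TMM, default expression filter, robust quasi-likelihood test, Benjamini-Hochberg adjusted p under 0.05 over all genes tested), fitting the groups compared alone, or all 18 tumors for the interaction. Intervals are 95%. Cells and tumors were not tested against each other. Where 200 genes of simulated counts were given a log2 change of 2, edgeR recovered 90.5% among 12489 genes for culture, 78.5% among 14953 for the lines in BALB/c, 78.0% among 14355 for the lines in SCID-beige, 75.0% among 14929 and 86.0% among 14572 for the hosts in D2.1 and D2A1, and 56.0% among 16036 for the interaction. Most fitted changes reported here were smaller than 2, and recovery of smaller changes was not simulated. Alternatives were DESeq2 1.42.0, other size factors and filters, the replicate block, a joint fit of tumors and each library left out. Shared exon bases came from the annotation, and similar transcripts (at least 90% identity over 150 bases) from blastn 2.17.0. No pair of replicates was a duplicate (lowest chi-square per gene 5.20 over 6 culture pairs and 20.3 over 32 tumor pairs).

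Groups share replicate numbers. Across genes, deviations of same-numbered cultures from their group means correlated at 0.184 to 0.491, so the block is given beside the unpaired culture results where it changes a call, although no label gives a shared day. Tumor numbers were not taken as pairs, a borderline choice for BALB/c tumors. The members and lists were chosen with earlier results of these data known. Named beside the members are, per list and line comparison, up to 3 of the largest rises and 3 of the largest falls among called genes without overlap between groups, and the 3 protein-coding genes of highest likeness per member. A further marker list is not reported here. Genes called in all 3 line comparisons, Cdkn1a, Rb1 and Mki67 were named after their values were seen.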

Additional observations from a re-analysis of the deposited data

Results flagged for a closer look

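Ccnd2 in D2.1 BALB/c tumor 1, at 85.9 CPM, stood far from the other 3 tumors of its group, with a gap of 0.838 of the range of the group, above Dixon's critical value of 0.829 for 4 samples. It was 1 of 40 combinations of a gene and a tumor group checked, and chance flags about 1 in 20 groups. The same tumor held milk protein transcripts at 343 CPM and skeletal muscle transcripts at 329 CPM, and their part in its Ccnd2 level was not tested.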

How the results depend on the processing

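Fold changes of the 10 genes kept direction and side of the threshold in 421 cases under alternatives that keep all libraries or omit more than 1, and in 525 cases without 1 library. Calls were gained in 11 and lost in 8 cases of the first kind, and gained in 3 and lost in 28 of the second. Ccnd2 and Ccne1 in tumors, Ccnd2 and Cdkn2b in culture, and Ccnd1 and Cdkn2b in SCID-beige tumors were called under every alternative run. Without 1 library, the genes called numbered 2 to 4 in culture, 2 to 3 in BALB/c, 4 to 4 in SCID-beige, 0 to 1 in D2.1 hosts and 0 in D2A1 hosts and the interaction, and the pathway genes 5 to 12, 10 to 12 and 10 to 13 in the line comparisons and 0 elsewhere. The genes called in culture fell from 5 to 2 without D2A1 culture 1 or 2 or D2.1 culture 1 and to 3 without D2.1 culture 2, and the pathway genes from 11 to 5, 7, 6 and 6. Tumor numbers were not treated as pairing the tumors. Correlations of same-numbered libraries were 0.0899 to 0.464 in BALB/c, -0.142 to 0.263 in SCID-beige, -0.183 to 0.159 between hosts in D2.1 and -0.374 to -0.159 in D2A1. Not every tumor correlated best with its own number, and neither did culture number 2. For BALB/c tumors the choice was borderline, since all their correlations were positive. With the replicate block 6 of the 10 genes were called in BALB/c tumors, where 47.6% of all genes were, Ccnd1 (adjusted p = 0.041), Cdkn2a (0.028) and Cdkn2b (0.0012) in addition, and 0 in D2.1 hosts (Ccnd2 1.09, adjusted p = 0.25, edgeR). The block called 17 pathway genes in culture, where 60.4% of all genes were called, and it changed no other call of the 10 genes than these and those of Cdk4 and Cdk6. Pathway genes called in culture were 7 without a filter and 20 without number 3 of both lines, and 8 in BALB/c without D2.1 tumors 1 and 4, which left 0 of the 10 genes in D2.1 hosts, as did leaving out D2.1 SCID-beige tumors 4 and 5. DESeq2 called 1 pathway gene in D2A1 hosts. The causes were not tested.

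Directions turned 10 times with all libraries or more than 1 omitted, all uncalled: with library totals, Cdk6 in BALB/c (-0.070), Cdk4 in D2A1 hosts (0.020) and Cdkn2a in the interaction (-0.00087); with the replicate block, Ccne2 in D2.1 hosts (0.073) and Ccnd3 in D2A1 hosts (-0.080); with DESeq2's size factors and DESeq2, Ccnd3 in D2A1 hosts (-0.023 in each) and Cdkn2b in the interaction (0.027 in each); and without D2.1 tumors 1 and 4, Cdk6 in D2.1 hosts (0.017). They turned 44 times without 1 library, also uncalled. In D2A1 hosts these results ran from -0.087 to 0.33 for Ccnd2, -0.17 to 0.12 for Ccnd3, -0.0055 to 0.22 for Ccne1, -0.17 to 0.074 for Cdk4 and -0.0057 to 0.10 for Cdkn1b. In D2.1 hosts they ran from -0.29 to 0.093 for Ccne2 and -0.34 to 0.014 for Cdkn2a, and in line comparisons from -0.33 to 0.075 for Ccne2 and -0.14 to 0.12 for Cdk6 in BALB/c and from -0.074 to 0.14 for Cdk4 in SCID-beige. In the interaction they ran from -0.037 to 0.23 for Ccnd3, -0.16 to 0.21 for Cdkn2a and -0.24 to 0.11 for Cdkn2b. Cdkn1b in BALB/c was no longer called with library totals (0.46, adjusted p = 0.059, edgeR) or without a filter (0.53, adjusted p = 0.055), and Ccne2 in culture without a filter (-0.36, adjusted p = 0.10).

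Library totals in place of TMM moved the median of all genes in culture by -0.13 on the log2 scale and the split of calls from 3023 higher and 2579 lower to 2433 and 3271. Depth gave each of the 10 genes at least 49 counts in every library, and the number of libraries sets the precision.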
